A study of Mus musculus with 6 samples.

Results

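The trophectoderm genes examined here were the 10 genes *Cdx2*, *Eomes*, *Elf5*, *Tfap2c*, *Gata3*, *Hand1*, *Ascl2*, *Krt8*, *Krt18* and *Bspry*, taken by name from the lists of gene expression in mouse embryonic stem (mES) cells. 9 of the 10 were among the 16668 genes listed, *Elf5* was not listed and has no value, and 7 had enough signal to be tested among 11538 genes. The study knocked down Ring1B (gene *Rnf2*) and Dzip3, 2 enzymes that attach ubiquitin to histone H2A, by siRNA, and checked the knockdowns in cells grown in serum. The E14 mES cells, of strain 129/Ola and at low passage, grew feeder-free in 2i+LIF medium, which holds inhibitors of MEK and GSK3 together with the cytokine LIF, and the controls received control siRNA. 6 stranded mRNA libraries were measured, 2 in each of 3 groups, which the legends call biological duplicates.

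The deposited lists carry names, and the word in the name (control, Ring1BKD or Dzip3KD) differed from the sample label for 4 of the 6 libraries. Lists 1 to 3 are called the first set and lists 4 to 6 the second set, and the labels name no batch. In the first set, the list named control was labelled control replicate 1, the list named Ring1BKD was labelled control replicate 2, and the list named Dzip3KD was labelled Ring1B-KD replicate 1. In the second set, the list named control was labelled Ring1B-KD replicate 2, the list named Ring1BKD was labelled Dzip3-KD replicate 1, and the list named Dzip3KD was labelled Dzip3-KD replicate 2. Libraries are called below by list name and set, and each comparison was made by list name within sets and also by label. By label, both control libraries lay in the first set and both Dzip3-KD libraries in the second, so label and set cannot be told apart for that pair.

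Both targeted genes differed along the list names, and *Rnf2* went against the labels. *Rnf2* was at 30.6, 20.4 and 26.8 RPKM (reads divided by exon length and by the library's mapped reads) in the lists named control, Ring1BKD and Dzip3KD of the first set, and at 28.8, 19.4 and 28.2 RPKM in those of the second. By label, Ring1B-KD (26.8 and 28.8 RPKM) was therefore not below both controls (30.6 and 20.4 RPKM). *Dzip3* was at 2.24, 2.68 and 1.18 RPKM in the first set and at 1.89, 1.70 and 1.31 RPKM in the second, in the same order of list names. By label, *Dzip3* was at 2.24 and 2.68 RPKM in control, 1.18 and 1.89 RPKM in Ring1B-KD, and 1.70 and 1.31 RPKM in Dzip3-KD. Both Dzip3-KD libraries thus lay below both controls (log2 difference -0.47, adjusted p = 0.458), as they did for 30.3% of all 11538 tested genes. Neither targeted gene passed the test by list name, with log2 differences of -0.55 for *Rnf2* in Ring1BKD (adjusted p = 0.232) and -0.45 for *Dzip3* in Dzip3KD (adjusted p = 0.754). *Rnf2* in Ring1BKD was 0.67-fold of control in the first set (0.56 to 0.80) and 0.67-fold in the second (0.56 to 0.81). *Dzip3* in Dzip3KD was 0.53-fold of control (0.30 to 0.90) and 0.69-fold (0.40 to 1.17). These ranges are exact intervals of the ratio and cover counting error only. Both ranges of *Rnf2* and the first of *Dzip3* lay below 1, and the second of *Dzip3* held 1. By list name, Ring1BKD lay below control within both sets for 40.6% of tested genes, and Dzip3KD for 29.5%. The libraries held 3015349 to 3583612 mapped reads, as recovered from the steps of the RPKM values. All 8 embryonic stem cell markers were high in every library, with *Pou5f1* at 248 to 433 RPKM, while the summed level of 6 primitive endoderm markers stayed at 0.654 to 1.34 RPKM and that of 4 mesoderm markers at 0.430 to 0.989 RPKM.

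The trophectoderm is the outer epithelium of the blastocyst and gives rise to the trophoblast of the placenta. In the embryo, TEAD4 and YAP switch on *Cdx2* and *Gata3* in outer cells, while the inner cells, from which mES cells derive, keep these genes off under OCT4 and under Polycomb repressive complexes, of which Ring1B is a subunit. Eomes, Elf5 and Tfap2c, together with Cdx2, sustain trophoblast stem cells, and the keratins 8 and 18 form the intermediate filaments of the epithelium.

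*Krt8*, the member that passed the test between the sets, its partner *Krt18* and *Gata3*, lowest in both libraries named control, are described in most depth, and their promoters are shown for their content of CpG, the dinucleotide whose dense islands Polycomb complexes favour. The sequences are the 250 bases before the start site in RefSeq (GRCm38.p6), with each CpG in capitals. They lie at chr15:102004343-102004592 on the minus strand for *Krt8*, chr15:102027966-102028215 on the plus strand for *Krt18* and chr2:9878601-9878850 on the minus strand for *Gata3*.

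Krt8: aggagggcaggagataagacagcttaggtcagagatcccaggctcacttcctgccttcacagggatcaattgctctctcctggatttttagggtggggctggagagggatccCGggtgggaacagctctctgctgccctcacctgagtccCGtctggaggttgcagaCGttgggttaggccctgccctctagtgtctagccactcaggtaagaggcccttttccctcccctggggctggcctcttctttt

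Krt18: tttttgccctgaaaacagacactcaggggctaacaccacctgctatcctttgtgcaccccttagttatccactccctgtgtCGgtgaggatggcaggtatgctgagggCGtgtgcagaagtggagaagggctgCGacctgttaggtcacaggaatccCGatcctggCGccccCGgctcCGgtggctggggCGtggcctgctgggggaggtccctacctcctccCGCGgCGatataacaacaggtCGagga

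Gata3: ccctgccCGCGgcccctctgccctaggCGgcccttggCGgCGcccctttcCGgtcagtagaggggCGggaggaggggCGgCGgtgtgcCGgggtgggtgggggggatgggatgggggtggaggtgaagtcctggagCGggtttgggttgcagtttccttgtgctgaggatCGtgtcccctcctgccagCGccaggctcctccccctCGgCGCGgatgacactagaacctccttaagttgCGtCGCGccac

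The *Krt8* window held 3 CpG at 58.0% G+C, the *Krt18* window 12 at 60.4%, and the *Gata3* window 19 at 70.0%, against a median of 6 CpG and 52.4% over 32851 promoter windows of this length. The partner keratins stood on opposite sides of the CpG median, and both were above the median of G+C. Of all windows, 29.0% held fewer CpG than *Krt8* and 80.3% held fewer than *Gata3*. Promoters of 8 of the 10 members were in the RefSeq table. *Tfap2c* and *Hand1* were not among them. *Cdx2* and *Ascl2*, with 13 and 19 CpG, lay on the *Gata3* side of the CpG median, as did *Eomes* with 8 and *Bspry* with 15, while the *Elf5* windows held 2 and 8.

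The AP-2 motif GCCNNNGGC, the binding sequence of the family to which Tfap2c belongs, occurred at 3 places in the *Gata3* window and at 1 place each in those of *Cdx2* and *Krt18*, and 13.7% of all windows held it. The TEAD motif CATTCC was present only in 1 of the *Elf5* windows among the members, against 12.6% of all windows. The TATA motif TATAAA was found in the *Bspry* window alone, against 12.4% of all windows. All 3 motifs were searched on both strands, no matches overlapped, and a match describes letters and not binding.

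**Figure D1:**
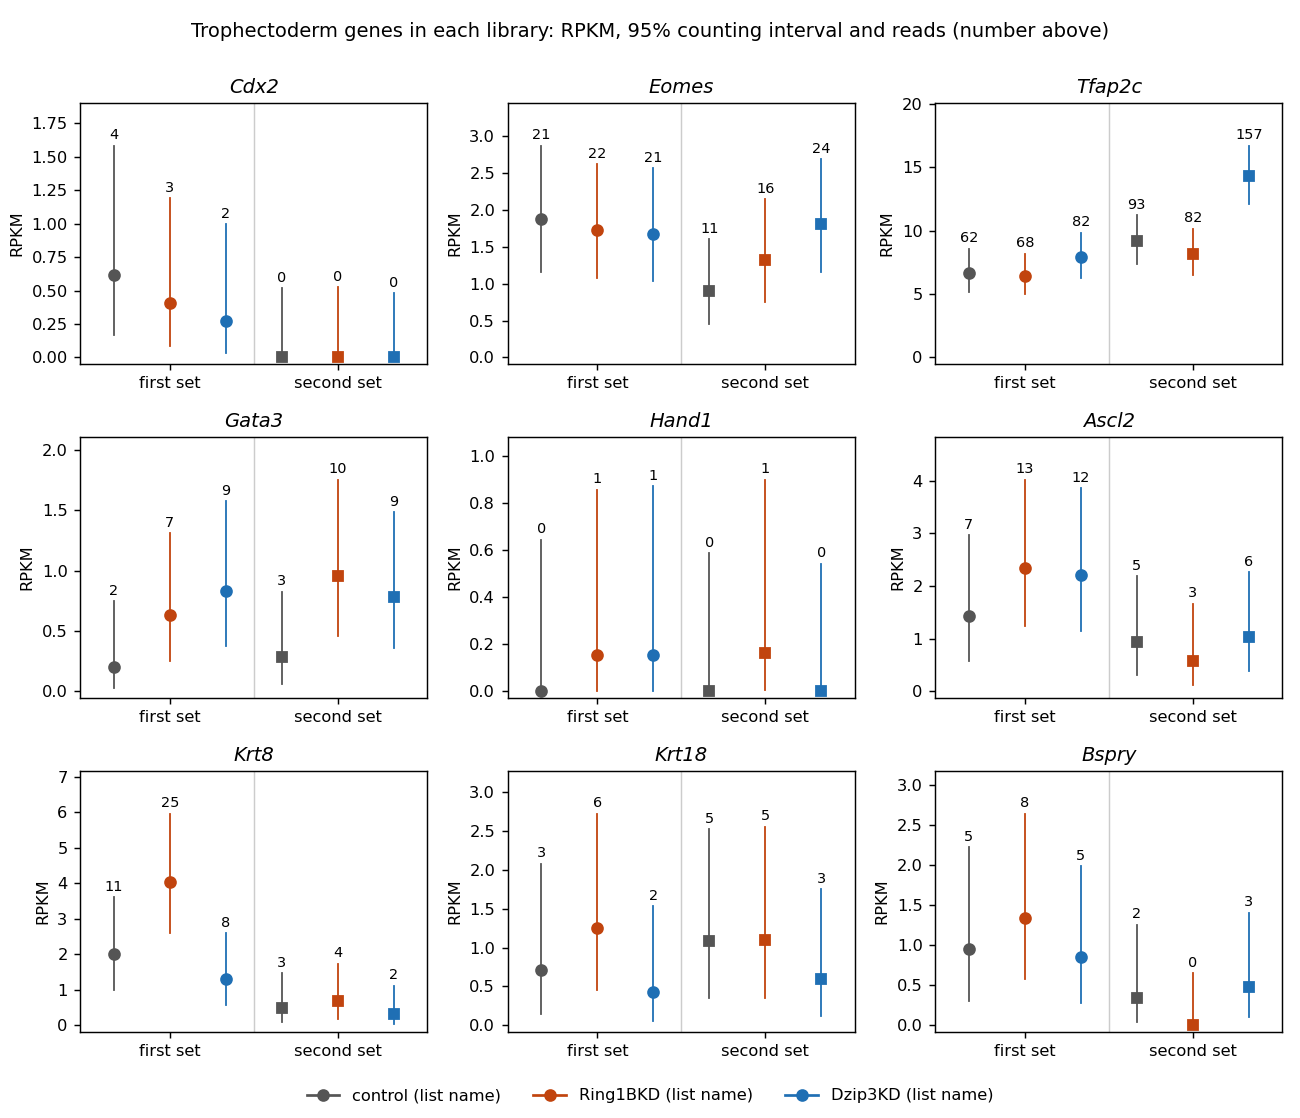
RPKM (vertical axis) of the 9 listed trophectoderm genes in each of the 6 libraries, ordered control, Ring1BKD, Dzip3KD by list name in the first set (circles) and the second set (squares). Bars are exact Poisson 95% intervals of the recovered reads, printed above them. *Tfap2c* alone has 20 or more reads in every library, and *Cdx2* has 0 in all 3 libraries of the second set.

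Levels were set by few reads. One read was worth about 0.140 to 0.166 RPKM on a transcript of 2 kb, and a count of 0 allows up to 3 reads. Of the 9 listed genes, only *Tfap2c* had at least 20 recovered reads in every library. Intervals below are exact 95% Poisson intervals or exact conditional intervals of a ratio, and they cover counting error only. In bulk RNA, fewer cells expressing a gene and less RNA in each cell cannot be told apart. The log2 differences of the tests are on the scale log2(RPKM + 1), which understates the change of genes at these levels.

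*Cdx2*, the factor that defines the trophectoderm lineage (mm9, chr5:148112381-148118846, minus strand), was at the counting limit. In the first set it had 4 reads (0.618 RPKM) in the list named control, 3 reads (0.408 RPKM) in Ring1BKD and 2 reads (0.276 RPKM) in Dzip3KD. In the second set it had 0 reads in all 3 libraries, where the limit of 3 reads lay at 0.390 to 0.428 RPKM. With 9 reads in the first set against 0 in the second, the exact counting interval of the ratio of the second set to the first reached up to 0.490. With a mean of 0.217 RPKM it lay under the filter of 0.5 RPKM and was not tested. Within the first set, the ratio of Ring1BKD to control was 0.659 with an interval of 0.0966 to 3.90, so that no difference by list name was detectable at this depth.

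*Eomes*, a T-box factor needed in trophoblast and in early mesoderm (mm9, chr9:118387330-118395250, plus strand), gave 21, 22 and 21 reads in control, Ring1BKD and Dzip3KD of the first set, or 1.87, 1.73 and 1.68 RPKM. The second set gave 11, 16 and 24 reads, or 0.896, 1.32 and 1.80 RPKM. The sets overlapped, since Dzip3KD of the second set lay within the range of the first. The ratio of Dzip3KD to control was 0.894 (interval 0.464 to 1.72) in the first set and 2.01 (0.949 to 4.55) in the second, and both intervals held 1.

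*Tfap2c*, which encodes AP-2γ, a factor of trophoblast and of germ cells that naive mES cells also express, was the highest of the members (mm9, chr2:172375093-172384122, plus strand). It was at 6.70, 6.46 and 7.92 RPKM in control, Ring1BKD and Dzip3KD of the first set, from 62, 68 and 82 reads. The second set stood at 9.17, 8.18 and 14.3 RPKM, from 93, 82 and 157 reads. Dzip3KD was the highest library within each set, and all 3 libraries of the second set lay above all 3 of the first. Of all 11538 tested genes, 1515 (13.1%) separated by set in that direction. Dzip3KD lay above control within both sets for 22.3% of tested genes, and above Ring1BKD for 34.0%. The counting interval of *Tfap2c* in Dzip3KD of the second set, 12.1 to 16.7 RPKM, lay above those of the other 5 libraries.

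*Tfap2c* in Dzip3KD was 1.18-fold of control in the first set (interval 0.840 to 1.67) and 1.56-fold in the second (1.20 to 2.03), and 1.23-fold (0.878 to 1.72) and 1.75-fold (1.33 to 2.31) of Ring1BKD. Over both sets the log2 difference was 0.40 (SE 0.17, 95% interval -0.00 to 0.80) against control and 0.50 (SE 0.17, 0.10 to 0.90) against Ring1BKD. Neither passed the test over all genes, with adjusted p of 0.754 and 0.386. Ring1BKD was at a log2 difference of -0.10 (SE 0.17, adjusted p = 0.907) from control, and the sign of this value turned with 75th percentile scaling, at 0.00, and without the library labelled Dzip3-KD replicate 1, at 0.05.

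*Gata3*, a zinc finger factor that acts beside Cdx2 in the trophectoderm (mm9, chr2:9778705-9811661, minus strand), was lowest in both libraries named control. It had 2 reads (0.206 RPKM) in control, 7 (0.635 RPKM) in Ring1BKD and 9 (0.830 RPKM) in Dzip3KD of the first set. Counts in the second set were 3 (0.282 RPKM), 10 (0.952 RPKM) and 9 (0.781 RPKM) in the same order. The 2 control libraries lay below the other 4, a pattern whose share over all tested genes was not counted. Over all tested genes, Ring1BKD stood above control within both sets for 18.5%, and Dzip3KD for 22.3%. The libraries of *Gata3* fell in the same order of control against the rest in both sets, but no library passed 10 reads.

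Ring1BKD was 3.08-fold of control for *Gata3* in the first set, with an interval of 0.586 to 30.4, and 3.37-fold in the second, with an interval of 0.868 to 19.1. Dzip3KD was 4.02-fold (0.832 to 38.3) and 2.77-fold (0.691 to 15.9) of control, so that every one of these intervals held 1. The log2 difference over both sets was 0.52 (SE 0.22) for Ring1BKD and 0.54 (SE 0.22) for Dzip3KD, with adjusted p of 0.581 and 0.754. The same 2 control libraries enter both comparisons. By label, *Gata3* was at 0.206 and 0.635 RPKM in control, 0.830 and 0.282 RPKM in Ring1B-KD, and 0.952 and 0.781 RPKM in Dzip3-KD, so that control and Ring1B-KD overlapped.

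**Figure D2:**
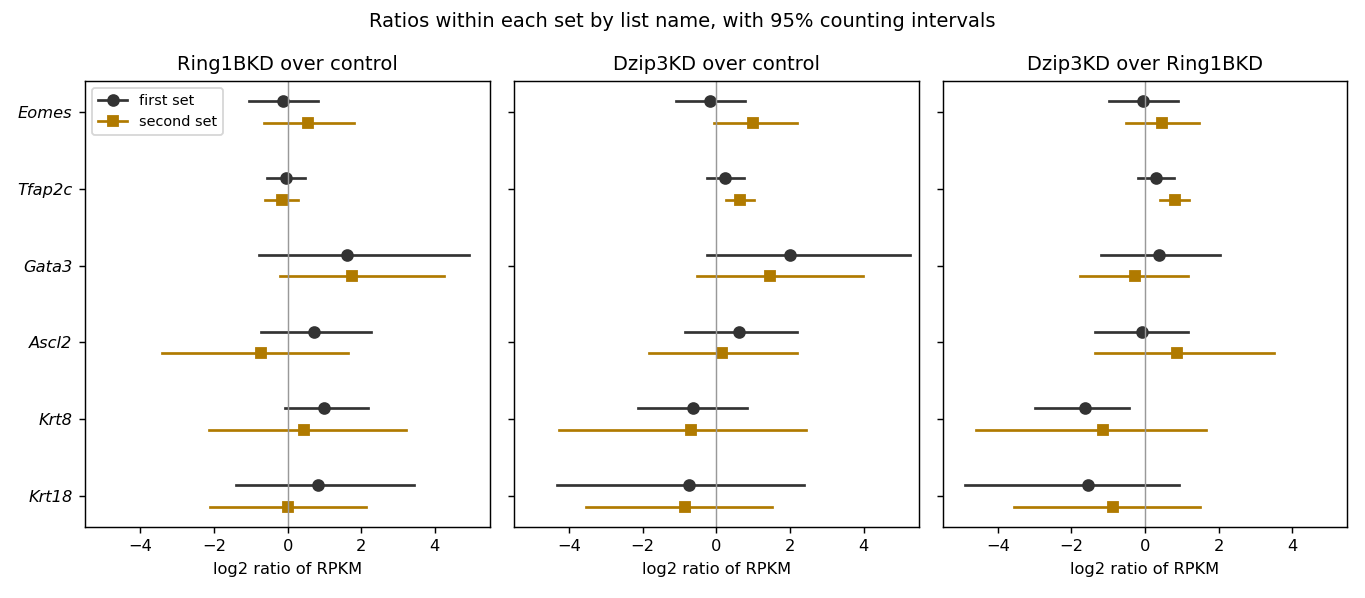
Log2 ratio of RPKM (horizontal axis) between libraries of the same set by list name, for the 6 trophectoderm genes with reads in every library (vertical axis), in the first set (circles) and the second set (squares). Bars are exact 95% counting intervals. Among the ratios to control only *Tfap2c* in Dzip3KD of the second set has an interval that lies clear of 0.

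*Hand1*, a basic helix-loop-helix factor of trophoblast giant cells and of the heart (mm9, chr11:57642207-57646320, minus strand), had 0, 1 and 1 reads in the first set and 0, 1 and 0 in the second. The limits from 0 reads were 0.441 to 0.524 RPKM, so the gene was at the counting limit in all 6 libraries. *Ascl2*, an imprinted factor needed for the spongiotrophoblast of the placenta (mm9, chr7:150152727-150155169, minus strand), had 7, 13 and 12 reads in control, Ring1BKD and Dzip3KD of the first set, or 1.44, 2.35 and 2.21 RPKM. Reads in the second set were 5, 3 and 6, or 0.938, 0.570 and 1.04 RPKM. *Ascl2* was thus lower in all 3 libraries of the second set than in any of the first, as were 15.5% of tested genes. Ring1BKD stood above control for *Ascl2* in the first set and below it in the second.

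*Krt8*, a type II keratin (mm9, chr15:101827142-101834773, minus strand), ranged from 0.309 to 4.04 RPKM between libraries. It had 11 reads (2.02 RPKM) in control, 25 (4.04 RPKM) in Ring1BKD and 8 (1.31 RPKM) in Dzip3KD of the first set. In the second set it had 3 reads (0.503 RPKM), 4 (0.678 RPKM) and 2 (0.309 RPKM). Within each set Ring1BKD was the highest and Dzip3KD the lowest library, and all 3 libraries of the second set were below all 3 of the first. Of all 11538 tested genes, 1785 (15.5%) had all 3 libraries of the second set below all 3 of the first. Ring1BKD lay above control within both sets for 18.5% of tested genes.

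Its type I partner *Krt18* (mm9, chr15:101858647-101862457, plus strand) had 3, 6 and 2 reads in control, Ring1BKD and Dzip3KD of the first set, or 0.711, 1.25 and 0.423 RPKM. Its reads in the second set were 5, 5 and 3, or 1.08, 1.09 and 0.598 RPKM. Dzip3KD was the lowest library of *Krt18* in each set, as it was for *Krt8*, but the 2 sets overlapped for *Krt18*. Dzip3KD lay below control within both sets for 29.5% of tested genes, and below Ring1BKD for 20.5%.

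The ratio of Dzip3KD to Ring1BKD for *Krt8* was 0.325 in the first set, with an interval of 0.127 to 0.744 that lay below 1, and 0.456 in the second, with an interval of 0.0412 to 3.18. Ring1BKD was 2.00-fold of control for *Krt8* in the first set (0.948 to 4.50) and 1.35-fold in the second (0.228 to 9.21). Both of these intervals held 1. Over both sets the log2 difference between Dzip3KD and Ring1BKD was -0.74 (SE 0.25, adjusted p = 0.362) for *Krt8* and -0.52 (SE 0.22, adjusted p = 0.475) for *Krt18*. Against control, *Krt8* was at 0.45 (SE 0.25, adjusted p = 0.649) in Ring1BKD and at -0.29 (SE 0.25, adjusted p = 0.847) in Dzip3KD, and *Krt18* was at 0.20 (SE 0.22, adjusted p = 0.830) in Ring1BKD. The keratins differed in the same direction, without passing the test. With 1 library left out, these differences from control ran from 0.11 to 0.78 and from -0.53 to -0.05 for *Krt8* and from 0.04 to 0.37 for *Krt18*. The values nearest 0 came without the Ring1BKD library of the first set for both keratins in Ring1BKD, and without the Dzip3KD library of the first set for *Krt8* in Dzip3KD.

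*Bspry*, which encodes a B-box and SPRY domain protein (mm9, chr4:62141085-62158332, plus strand), had 5, 8 and 5 reads in control, Ring1BKD and Dzip3KD of the first set, or 0.951, 1.34 and 0.850 RPKM. In the second set it had 2, 0 and 3 reads, or 0.347, 0 and 0.480 RPKM, and the limit for the library at 0 reads was 0.527 RPKM. All 3 libraries of the second set were below those of the first, as for 15.5% of tested genes. With a mean of 0.661 RPKM *Bspry* lay, like *Gata3* at 0.614 RPKM, just above the filter. *Bspry*, with a mean of 0.276 RPKM in the second set, reached the filter through the first set, and *Gata3*, with a mean of 0.244 RPKM in control by list name, through the other 4 libraries.

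By list name, none of the 7 tested members passed the test in Ring1BKD against control, where 48 of 11538 genes passed (0.416%), all of them higher. None passed in Dzip3KD against control either, where limma called 0 genes (0.0%), 752 were at an unadjusted p under 0.05, and the weighted fit on recovered reads called 1. In Dzip3KD against Ring1BKD, 78 genes passed (0.676%), 8 higher and 70 lower, again with 0 members. At an unadjusted p under 0.05 were 1 member in each comparison with control, *Gata3* both times, and 3 members between the knockdown words, *Krt8*, *Krt18* and *Tfap2c*, where 959, 752 and 1164 of the 11538 genes were. The same 2 control libraries enter both comparisons of *Gata3*. With a mean of 0.244 RPKM in them, *Gata3* reached the filter only through the libraries where it was higher.

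Markers of the 2-cell-like state, a rare state of mES cells that resembles the early embryo, moved with the word Ring1BKD and were highest where *Krt8* was. 3 of the 5 markers were listed (*Zscan4c*, *Zscan4d* and *Zfp352*), and *Tcstv1* and *Tcstv3* were not. Their summed level was 80.4, 209 and 70.0 RPKM in control, Ring1BKD and Dzip3KD of the first set and 34.9, 169 and 33.2 RPKM in the second. All 3 were higher in Ring1BKD than in control, with log2 differences of 1.77, 1.86 and 1.22, and lower in the second set than in the first, with -0.83, -0.82 and -0.71. Their part in the values of the keratins was not tested.

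**Figure D3:**
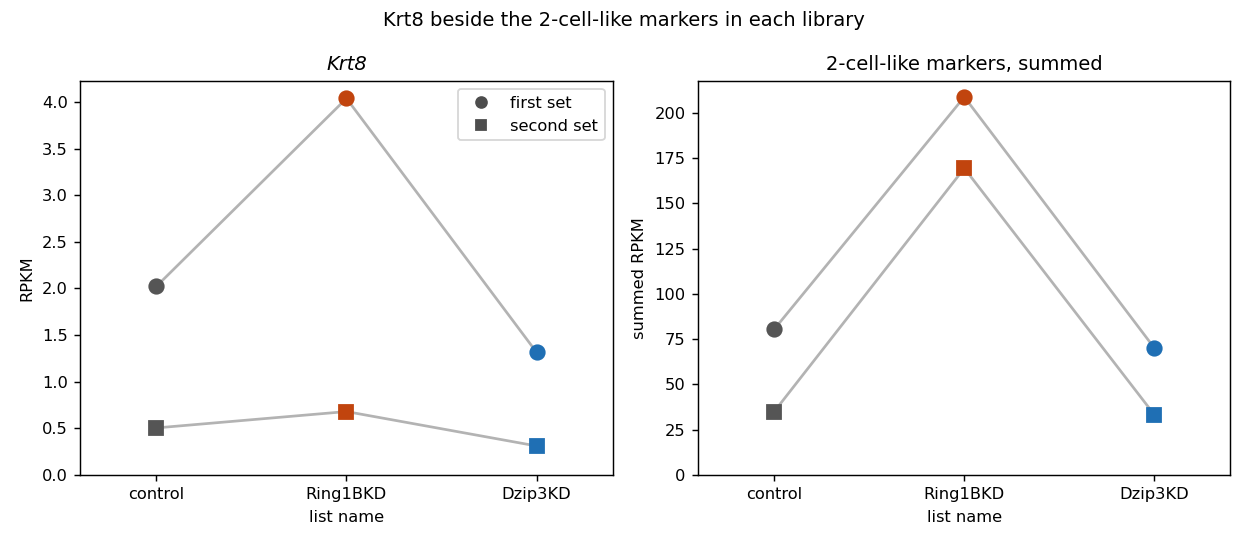
*Krt8* (left, RPKM) and the summed 2-cell-like markers *Zscan4c*, *Zscan4d* and *Zfp352* (right, summed RPKM) in each library by list name, with lines joining the libraries of a set. Ring1BKD is the highest library of its set in both panels. For *Krt8* the counting intervals of its ratio to control, 0.948 to 4.50 and 0.228 to 9.21, both hold 1. *Krt8* at 0.678 RPKM in Ring1BKD of the second set is under all 3 libraries of the first, whereas the markers there, at 169 RPKM, are over control and Dzip3KD of the first set.

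By label, where *Rnf2* goes against the label Ring1B-KD, no member passed in any of the 3 comparisons. limma called 0 genes (0.0%) in Ring1B-KD against control, 0 (0.0%) in Dzip3-KD against control and 0 (0.0%) in Dzip3-KD against Ring1B-KD, with 589, 1411 and 534 genes at an unadjusted p under 0.05, and the weighted fit on recovered reads also called 0 in each. *Krt8* had 2.02 and 4.04 RPKM under the label control, 1.31 and 0.503 RPKM under Ring1B-KD, and 0.678 and 0.309 RPKM under Dzip3-KD. Its control libraries overlapped with neither group. Of all 11538 tested genes, 18.9% had both Ring1B-KD libraries below both controls, and 30.3% had both Dzip3-KD libraries below them. For *Krt8* the log2 difference from control was -1.07 (SE 0.33, adjusted p = 0.902) in Ring1B-KD and -1.40 (SE 0.33, adjusted p = 0.300) in Dzip3-KD.

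Dzip3-KD differed from control by -0.81 for *Bspry* (SE 0.29, adjusted p = 0.355) and by 0.64 for *Tfap2c* (SE 0.25, adjusted p = 0.388) on the log2 scale. *Bspry* had 0 and 3 reads under the label Dzip3-KD. With means there of 0.240 RPKM for *Bspry* and 0.494 RPKM for *Krt8*, both reached the filter only through the other libraries. With the set entered as a term, 0 members were at an unadjusted p under 0.05 in Dzip3-KD against control, where 3 had been without it, and the count over all genes went from 1411 to 654. The set term of that fit rests only on the difference between the Ring1B-KD libraries, the only label found in both sets. It therefore cannot settle whether label or set goes with these differences. The differences in that fit were -0.77 for *Krt8*, -0.35 for *Bspry* and 0.45 for *Tfap2c* (adjusted p = 0.858, 0.936 and 0.905).

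Between the sets, *Krt8* was the member that passed the test. It was lower in the second set by a log2 difference of -1.14 (SE 0.20, adjusted p = 0.0199), with 44 reads in the first set and 9 in the second, a ratio of 0.198 with a counting interval of 0.0849 to 0.411. 879 of 11538 genes passed (7.62%), 455 higher and 424 lower, and 1 of 7 tested members did. *Krt8* reached the filter through the first set, since its mean in the second was 0.497 RPKM, and with no filter its adjusted p was 0.111. With 75th percentile scaling the split was 564 higher and 341 lower. *Krt8* no longer passed without either library named Ring1BKD, with adjusted p of 0.0697 without that of the first set and 0.0633 without that of the second, both at a log2 difference of -0.91.

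Of the other members, *Ascl2* and *Bspry* separated by set downward and *Tfap2c* upward, without passing. *Ascl2* and *Bspry* each differed by -0.69 (SE 0.20 and 0.22, adjusted p = 0.0720 and 0.0934), with 32 against 14 reads and 18 against 5 reads. *Tfap2c* differed by 0.49 (SE 0.14, adjusted p = 0.0755), with 212 reads against 332, and passed with 75th percentile scaling (adjusted p = 0.0498) and in the weighted fit on reads (adjusted p = 0.0133). *Eomes*, *Gata3* and *Krt18* differed by -0.26, 0.10 and 0.12, and their sets overlapped.

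Related genes were counted as lists, and 879 of all 11538 tested genes (7.62%) passed between the sets. Of 13 genes of the trophectoderm epithelium reported here, which carry its junctions and its fluid transport, 10 were tested, and 5 of them differed between the sets. *Cldn6* (1.45), *Cldn4* (0.89), *Aqp3* (0.80), *Dsp* (0.67) and *Atp1b1* (0.59), which encode tight junction claudins, an aquaporin, desmoplakin and a sodium pump subunit, rose on the log2 scale. *Dab2*, an endocytic adaptor, and *Tjp1*, a scaffold of tight junctions, were at -0.68 and -0.43 without passing. The median of the 10 was 0.68, beside -0.04 over all genes. *Cdh1*, the E-cadherin gene and the highest of the list on average, was at 54.4 to 73.9 RPKM and differed by 0.12 without passing, and *Atp1b1* and *Aqp3* were at 40.6 to 70.0 and 22.5 to 72.9 RPKM. The 5 that passed went the opposite way from *Krt8*, and *Krt7* and *Krt19*, with means of 0.155 and 0.143 RPKM, were under the filter. Several of them are also expressed in mES cells.

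Of 10 TEAD and Hippo genes, 9 were tested and 1 passed between the sets, *Amotl2*, an angiomotin that holds YAP in the cytoplasm, which fell by 0.61. The list's median was -0.11, and 7.62% of all tested genes passed between the sets. The factors upstream of *Cdx2* were present throughout, with *Yap1* at 19.9 to 25.2 RPKM, *Nf2* at 17.6 to 24.1 RPKM, *Tead1* at 18.4 to 24.3 RPKM and *Tead4* at 3.48 to 6.90 RPKM.

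Of 10 trophoblast stem cell regulators, 9 were tested, and *Sox21* rose by 0.89 while *Bmp4* fell by 1.50 in the second set. *Sox21* was at 8.45 to 9.99 RPKM in the first set and 13.3 to 23.0 RPKM in the second, and *Bmp4*, a signal of the BMP pathway, was at 4.16 to 5.20 and 0.840 to 1.22 RPKM. *Klf5*, which acts in the trophectoderm and in mES cells, was the highest of this list at 47.2 to 96.7 RPKM. The list's median was -0.36, and the share of all tested genes that passed was again 7.62%.

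Of 12 genes of differentiated trophoblast and placenta, 6 were listed, 3 were tested and 0 passed. *Cited2*, *Phlda2* and *Plet1* were at 20.7 to 29.4, 3.96 to 11.7 and 2.95 to 6.35 RPKM. The hormone and spongiotrophoblast genes *Prl3d1*, *Prl2c2* and *Tpbpa* were not listed. In the comparisons with control by list name, 0 genes of these 4 lists passed.

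Other markers also moved with the set, where 7.62% of all tested genes passed. Among the 8 embryonic stem cell markers, *Tdgf1* rose by 0.58 and *Esrrb* fell by 0.43, and the list's sum was 1452 to 1858 RPKM in the first set and 1716 to 1956 RPKM in the second. The summed level of 3 neural markers was 3.51 to 5.98 RPKM in the first set and 8.15 to 9.33 RPKM in the second, with *Nes* higher by 0.88 and *Pax6* at 0 in 1 of the 6 libraries. The sum of the feeder or fibroblast markers, of which 3 of 5 were listed, was 1.18 to 3.10 RPKM in the first set and 2.16 to 2.30 RPKM in the second. Their part in the set difference of *Krt8* and the other members was not tested.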

How the data were processed

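Per the methods, the authors prepared stranded mRNA libraries, aligned reads to mm9 with the Illumina Analysis Pipeline, and deposited RPKM from uniquely mapped reads, with 1 list per library. The gene annotation and program versions are not given in the sources used here. Whole reads were recovered from the steps of RPKM for 15505 of 16668 genes (93.0%). limma (version 3.58.1, R 4.3.3) was fitted to log2(RPKM + 1). Genes whose mean reached 0.5 RPKM entered, p-values were adjusted over all 11538 of them by Benjamini and Hochberg, and 0.05 was the threshold. The fit by list name had the set as a term, and the fit by label had none. The weighted fit was limma voom on recovered reads. The procedure was tested on simulated data. Gene positions came from GENCODE vM1 on mm9. Members, lists and tests were chosen with earlier results of these data known. All 10 members were named, and of each list of related genes the 3 with the highest mean RPKM and those past the threshold. *Dab2*, *Tjp1*, *Krt7* and *Krt19* were named after their values were seen. 2 genes of these lists are not reported here and were left out of the list counts and sums.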

Additional observations from a re-analysis of the deposited data

How the results depend on the processing

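The number of members called was 0 under every alternative run in all 6 comparisons between conditions. Of 250 alternative values for the 21 member differences reported, 243 kept direction and side of the threshold, and over all 49 differences 37 of 609 turned sign, 30 of them on leaving out 1 library. The sign turned for *Tfap2c* in Ring1BKD against control with 75th percentile scaling (0.0031) and without the library labelled Dzip3-KD replicate 1 (leave-one-out range -0.24 to 0.048). The number of members called between the sets was 2 with 75th percentile scaling, 2 in the voom fit, 0 with a filter at 2 RPKM, which removes *Krt8*, and 0 with no filter, and 0 to 1 with 1 library left out. The cause of these moves was not tested. The depth limits *Cdx2*, *Hand1*, *Gata3*, *Krt18* and *Bspry* most. The voom fit and all alternatives for the sets were chosen after seeing the data.

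Genes called in Ring1BKD against control numbered 0 with no filter, 0 with no set term, 21 with a pseudocount of 0.1, 87 in the voom fit and 3 to 61 on leaving out 1 library, with 3 without the library labelled Dzip3-KD replicate 1. In Dzip3KD against control they numbered 1 in the voom fit and 0 to 4 without 1 library, with 4 without Ring1B-KD replicate 2 and 1 without Dzip3-KD replicate 2. In Dzip3KD against Ring1BKD they numbered 0 with no filter, 0 with no set term, 172 with only the libraries compared, 42 with a pseudocount of 0.1, 144 in the voom fit and 26 to 172 without 1 library, below 78 without either Dzip3-KD library or Ring1B-KD replicate 1 and above it without control replicate 1 or Ring1B-KD replicate 2. In Dzip3-KD against control by label they numbered 24 with only the libraries compared and 0 to 27 without 1 library, above 0 without either Ring1B-KD library. Between the sets they numbered 0 with no filter, 1696 in the voom fit and 351 to 509 without any 1 library. Leaving out a library leaves 1 in an arm, which is then assumed to vary like the other groups.

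With the replicate number of the labels as a block, 1 gene was called in Dzip3-KD against control, against 0 without it, and 0 members. Differences between same-group replicates correlated at -0.242 to 0.044 between groups over all tested genes. Control replicate 2 and Dzip3-KD replicate 1 both carry the list name Ring1BKD and enter their differences with opposite signs. While labels and list names differ, these correlations therefore cannot decide on a pairing by replicate number. Only the Ring1B-KD replicates lie in different sets, so these correlations cannot show a pairing by set. With the numbers of Dzip3-KD exchanged the block called 0 genes.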
